A study of Caenorhabditis elegans with 2 samples.

Results

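The small nucleolar RNA (snoRNA) genes of Caenorhabditis elegans were examined for sites of MADF-8. All 346 genes that Ensembl release 115 types as snoRNA on the 6 chromosomes of WBcel235 were taken, out of 46890 annotated genes of all types. They are 54 to 344 bp long, with a median of 130 bp, and all 346 have the same coordinates in the RefSeq annotation of that build. A gene was called bound when a MADF-8 site had its summit in a window that reached 500 bp before the gene start and 100 bp beyond it. By this rule 65 snoRNA genes (18.8%, 95% Wilson interval 15% to 23.2%) were bound, beside 3.7% of all annotated genes, 3.59% of those other than snoRNA genes and 6.51% (6.18% to 6.86%) of 19973 protein-coding genes. Of the other classes of small RNA gene, 34 of 129 snRNA genes (26.4%, 19.5% to 34.6%) and 66 of 612 tRNA genes (10.8%, 8.57% to 13.5%) were bound. All such intervals cover counting error over genes or sites only.

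The sites come from chromatin immunoprecipitation with sequencing (ChIP-seq) of whole young adult worms, 64 hours of age, synchronised by starving first-stage larvae after bleaching. The worms were of strain RW12322, which carries the CRISPR insertion st12322 (madf-8::TY1::EGFP::3xFLAG) on chromosome III, so that MADF-8, a protein with a MADF DNA-binding domain, is made as a fusion with enhanced green fluorescent protein. Chromatin was broken by sonication and recovered with an antibody against that protein. The 2 samples are biological replicates of 1 group and both carry the tag, with no untagged or second condition among them, and the signal is an average over all tissues of the worm. The authors' set for the pair of replicates held 1972 sites, and the sets of replicate 1 and replicate 2 alone held 1347 and 1608. The depth of the libraries is unknown.

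snoRNAs guide the chemical modification of ribosomal RNA and of other small RNAs. Box C/D snoRNAs direct methylation of the ribose, and box H/ACA snoRNAs direct the change of uridine to pseudouridine. A snoRNA gene within an intron of a host gene can be made from the spliced intron of the host, whereas a gene outside any host may have a promoter of its own. The spliceosomal small nuclear RNA (snRNA) genes carry a short element just upstream of their start, the proximal sequence element. Transfer RNA (tRNA) genes carry an internal promoter of 2 parts, the A box and the B box, which is read by RNA polymerase III.

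The sequences just upstream of bound snoRNA genes were sorted into 3 kinds, shown here because the share of bound genes differed most between them. The kinds were defined after the sequences of bound and unbound genes had been seen, so that difference is a description and no independent test. Each run is read on the strand of the gene, from 100 bases before its start to base 20 of the gene, from RefSeq WBcel235. The first kind held a pattern of 18 bases, CGNAACNC followed by 6 bases of any kind and then TGTC, where N is any base. Capitals mark its fixed letters in 2 bound genes outside any host, smy-3 and Y53F4B.47, and 2 bound genes inside a host, T06D8.11 and ZK994.7. Like all members, smy-3 counts as a snoRNA gene here by its Ensembl type, and whether its product is a snoRNA was not tested. K02F6.11, outside any host, holds the same pattern and was not bound.
smy-3 (chrV:14092472-14092591, plus strand): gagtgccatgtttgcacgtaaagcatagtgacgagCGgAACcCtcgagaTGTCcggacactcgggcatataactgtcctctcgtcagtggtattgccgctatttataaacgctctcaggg
Y53F4B.47 (chrII:15025874-15025993, minus strand): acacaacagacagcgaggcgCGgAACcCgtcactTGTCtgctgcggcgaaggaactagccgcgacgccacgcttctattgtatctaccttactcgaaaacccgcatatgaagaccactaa
T06D8.11 (chrII:11224082-11224201, plus strand): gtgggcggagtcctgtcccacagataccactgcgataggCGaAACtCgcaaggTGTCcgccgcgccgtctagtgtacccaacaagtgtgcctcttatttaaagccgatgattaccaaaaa
ZK994.7 (chrV:8500479-8500598, plus strand): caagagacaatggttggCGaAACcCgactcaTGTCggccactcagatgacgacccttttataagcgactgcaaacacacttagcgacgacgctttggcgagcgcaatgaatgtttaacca
K02F6.11 (chrII:2556779-2556898, minus strand): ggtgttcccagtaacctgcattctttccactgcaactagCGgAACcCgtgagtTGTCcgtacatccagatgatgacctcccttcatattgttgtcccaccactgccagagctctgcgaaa

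The second kind held the word GTTCNANNCC, which has the form of the B box of tRNA genes and is called B-box-like here. Some of these genes also held the A-box-like word TGGCNNAG further upstream. Capitals mark both words in W03C9.9 and T03F7.8, outside any host, and the B-box-like word in C51F7.3, inside frm-7. Most of the stretch shown before C51F7.3, with the word, lies within a neighbouring snoRNA gene, C51F7.4.
W03C9.9 (chrII:11960798-11960917, plus strand): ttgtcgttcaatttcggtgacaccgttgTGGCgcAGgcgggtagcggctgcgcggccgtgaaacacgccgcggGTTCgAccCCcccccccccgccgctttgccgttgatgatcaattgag
T03F7.8 (chrV:11314158-11314277, plus strand): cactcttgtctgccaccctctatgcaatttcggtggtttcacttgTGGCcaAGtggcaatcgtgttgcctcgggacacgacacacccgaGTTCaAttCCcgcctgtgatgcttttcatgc
C51F7.3 (chrV:12303608-12303727, plus strand): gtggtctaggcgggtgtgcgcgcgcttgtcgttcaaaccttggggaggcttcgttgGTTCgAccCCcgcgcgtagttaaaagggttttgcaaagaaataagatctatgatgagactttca

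The third kind held neither as an exact match of letters, though some of its genes held the A-box-like word. It is shown by 2 of the strongest sites outside a host, at F09G2.14 and M03D4.78, and by the strongest site of all snoRNA genes, at Y24D9A.9 inside the ribosomal protein gene rpl-7A. The summit at Y24D9A.9 lay 363 bp upstream of the snoRNA gene, beyond the stretch shown.
F09G2.14 (chrV:7196561-7196680, minus strand): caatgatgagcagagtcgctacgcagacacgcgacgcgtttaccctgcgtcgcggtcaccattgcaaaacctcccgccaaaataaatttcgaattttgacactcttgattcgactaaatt
M03D4.78 (chrIV:6117857-6117976, minus strand): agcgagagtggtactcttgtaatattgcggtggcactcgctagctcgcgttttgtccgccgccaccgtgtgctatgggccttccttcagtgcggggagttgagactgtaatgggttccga
Y24D9A.9 (chrIV:4390289-4390408, minus strand): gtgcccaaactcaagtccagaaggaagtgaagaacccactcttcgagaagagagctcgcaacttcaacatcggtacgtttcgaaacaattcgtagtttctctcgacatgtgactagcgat

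MADF-8 summits lay close to the starts of the snoRNA genes themselves. The 65 bound genes made 68 pairs of gene and site over 67 distinct sites. C51F7.3 and C51F7.4 shared 1 site, and W07G1.23, W06A7.12 and Y43F8C.22 had 2 sites each. The median summit lay 44 bp upstream of the start, with quartiles at 65 and 17 bp upstream, a farthest summit at 481 bp upstream and 1 at 57 bp downstream. In 57 of the 68 pairs (83.8%, 73.3% to 90.7%) the summit was within 100 bp of the start. The same share was 82.9% (29 of 35 pairs) for snRNA genes, 81.9% (59 of 72) for tRNA genes and 22.1% (20% to 24.4%, 296 of 1338) for protein-coding genes, whose median summit lay 204 bp upstream. Counted by gene, 57 of 346 snoRNA genes (16.5%, 12.9% to 20.7%) had a summit within 100 bp of the start, beside 1.24% of all annotated genes.

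**Figure D1:**
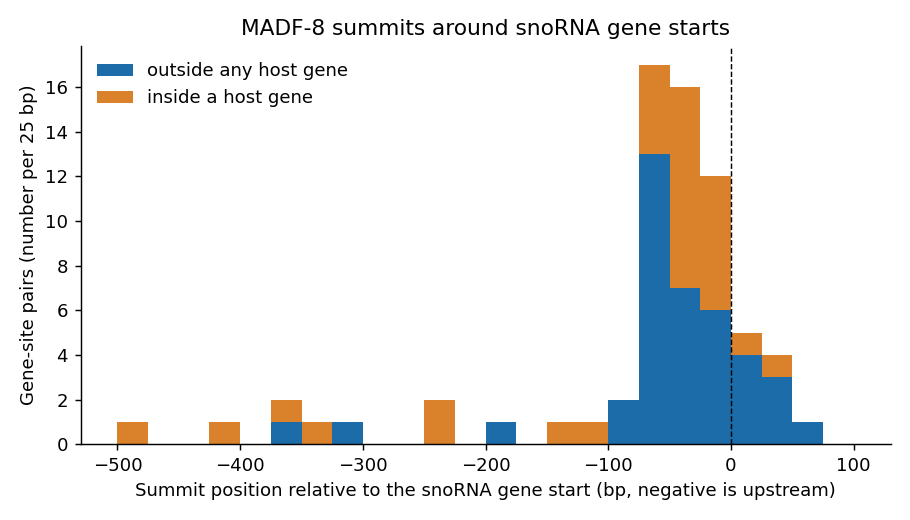
Number of gene-site pairs in bins of 25 bp (vertical axis) by position of the summit relative to the snoRNA gene start in bp (horizontal axis, negative is upstream), for genes outside any host and inside a host, stacked. Most of the 68 pairs lie in the bins just upstream of the start, and the median is 44 bp upstream.

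Most summits lay nearer to a snoRNA gene start than to a protein-coding one. In 61 of the 68 pairs (89.7%, 80.2% to 94.9%) the summit was closer to the snoRNA gene start than to the start of any protein-coding transcript. In 47 pairs (69.1%) it lay in the window of no protein-coding start at all. Of the 65 bound genes, 44 had a site of that kind, and 21 had every site also within the window of a protein-coding start. No start of a gene that Ensembl types as tRNA or snRNA lay within 100 bp of the summit in any of the 68 pairs (0 of 68, which allows a share of up to 4.41%). Some summits, such as those at F59C6.15 and T06D8.11, also lay in the window of another noncoding RNA gene or a pseudogene. Distances to those starts were not compared. Among the 193 snoRNA genes with no protein-coding start within 1000 bp, 34 (17.6%, 12.9% to 23.6%) were bound, and among the 153 with such a start, 31 (20.3%, 14.7% to 27.3%) were.

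**Figure D2:**
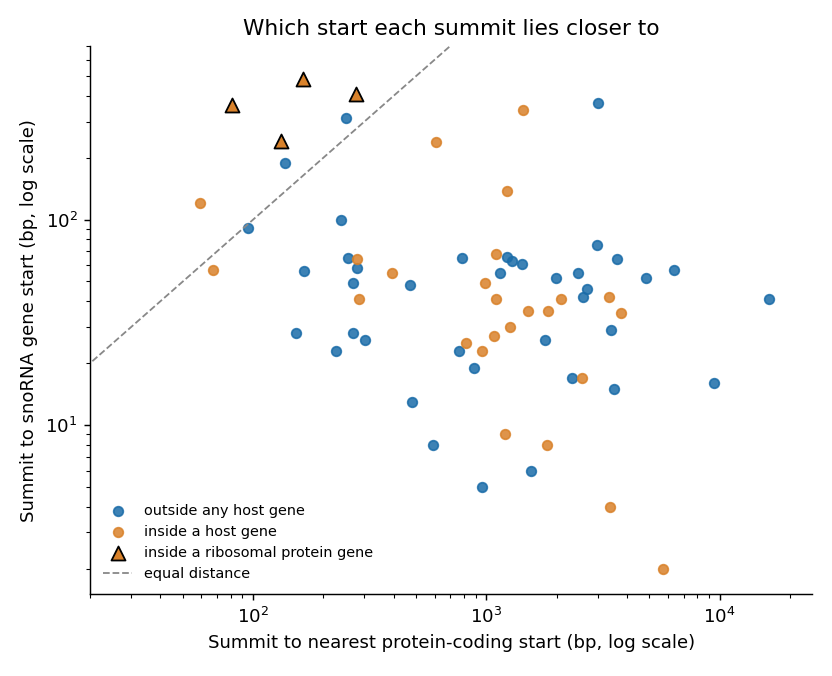
Distance of each summit in bp to the start of its snoRNA gene (vertical axis, log scale) against its distance to the nearest protein-coding start (horizontal axis, log scale), 1 point for each of the 68 gene-site pairs. The 61 pairs below the dashed line of equal distance are closer to the snoRNA gene, and the 4 pairs inside ribosomal protein genes (triangles) all lie above it.

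Binding was found both at snoRNA genes outside any host and at those within a host. A host is here an annotated gene on the same strand that contains the snoRNA gene. Of 157 snoRNA genes outside any host 38 (24.2%, 18.2% to 31.5%) were bound, and of 189 inside a host 27 (14.3%, 10% to 20%). The intervals overlap, and the difference between these shares was not tested. With a summit within 100 bp of the start as the rule, the counts were 36 of 157 (22.9%, 17% to 30.1%) outside a host and 21 of 189 (11.1%, 7.38% to 16.4%) inside one. Of the 157 genes outside a host, 38 lay across from a gene on the opposite strand and 12 of these (31.6%, 19.1% to 47.5%) were bound, while 26 of the other 119 (21.8%, 15.4% to 30.1%) were.

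Among snoRNA genes within a host, those that lay wholly in an intron made up nearly all of the bound ones. Of 146 in introns only, 25 (17.1%, 11.9% to 24.1%) were bound, and of 43 that overlapped an exon, 2 (4.65%, 1.28% to 15.5%). All 27 bound genes were in protein-coding hosts, of 183 in such hosts. None of the 6 genes in noncoding hosts was bound, which allows a share of up to 50%. The 189 genes lay in 162 hosts, of which 26 held a bound snoRNA gene. Only frm-7, which encodes a FERM domain protein, held 2. The host with the most snoRNA genes and none bound was nol-56, which encodes a core protein of the box C/D particle and holds 4.

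Of the splits examined here, the share of bound genes differed most with the upstream sequence. The 18-base pattern stood in 34 of 346 snoRNA genes (9.83%), and 22 of these (64.7%, 47.9% to 78.5%) were bound. The B-box-like word stood in 28 genes (8.09%), and 16 of these (57.1%, 39.1% to 73.5%) were bound. Of the 284 genes with neither, 27 (9.51%, 6.62% to 13.5%) were bound. No gene held both. The patterns were written down after the upstream sequences of bound and unbound snoRNA genes had been seen, so these shares describe the genes and are no independent test.

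Genes with either sequence had larger bound shares than genes with neither, outside and inside hosts. With the 18-base pattern, 14 of 24 genes outside a host (58.3%) and 8 of 10 inside one (80%) were bound. With the B-box-like word the counts were 9 of 17 (52.9%) and 7 of 11 (63.6%). With neither they were 15 of 116 (12.9%) outside and 12 of 168 (7.14%) inside. The 18-base pattern was itself found in 15.3% of genes outside a host and 5.29% of those inside, and the B-box-like word in 10.8% and 5.82%, so 10 and 11 genes within hosts carry these sequences.

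**Figure D3:**
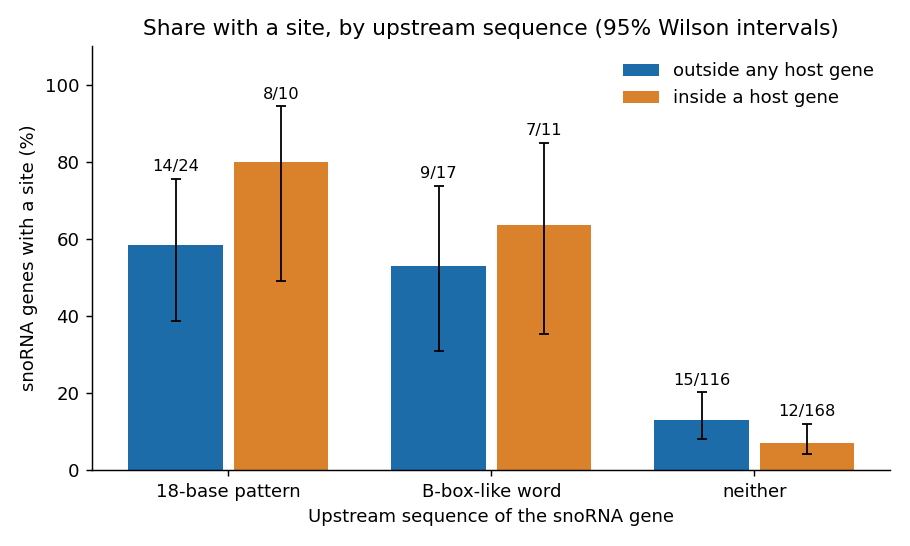
Share of snoRNA genes with a MADF-8 site in % (vertical axis) by upstream sequence, for genes outside any host and inside a host, with 95% Wilson intervals and the counts above the bars. In both classes of gene the bars of the 18-base pattern and the B-box-like word stand above 50% and those of genes with neither below 15%.

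The patterns were rare at protein-coding starts. Over the same stretch, read on the strand of the gene, the 18-base pattern stood before 22 of 65 bound snoRNA genes (33.8%) and 12 of 281 unbound ones (4.27%), and in 4 of 19973 protein-coding genes (0.02%), 33 of 129 snRNA genes (25.6%) and 1 of 612 tRNA genes. The B-box-like word stood before 16 bound (24.6%) and 12 unbound snoRNA genes (4.27%) and in 0.436% of protein-coding genes and no snRNA gene (0 of 129). It was found in 1 of 612 tRNA genes, whose B box lies further into the gene than the stretch searched, so that count says nothing of tRNA genes. The A-box-like word stood before 13 bound (20%) and 16 unbound snoRNA genes (5.69%), and in 0.956% of protein-coding genes and 16.5% of 612 tRNA genes. Of those tRNA genes 8 (7.92%, 4.07% to 14.9%) were bound, and of the 511 without the word 58 (11.4%, 8.88% to 14.4%). The 18-base pattern was written down from snoRNA genes, with earlier results of these data known, so its shares in snRNA genes are no independent test either. Of the 33 snRNA genes that hold it 18 (54.5%, 38% to 70.2%) were bound, and of the 96 that lack it 16 (16.7%, 10.5% to 25.4%). Many snRNA genes are near-identical copies and are not independent of one another. A match of letters is a description and not a site.

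The 18-base pattern began 57 to 83 bp upstream of bound snoRNA genes, with a median of 62 bp, and 59 to 88 bp upstream of unbound ones, with the same median. In snRNA genes it began 58 to 74 bp upstream, again with a median of 62 bp. The B-box-like word began 5 to 44 bp upstream of bound genes, with a median of 14 bp, and 5 to 31 bp upstream of unbound ones, with a median of 12 bp. The position of each sequence therefore did not separate bound from unbound genes. In the 22 bound genes with the 18-base pattern the nearest summit lay a median of 25 bp downstream of the centre of the pattern. In the 16 with the B-box-like word it lay a median of 29.5 bp upstream of the centre of the word.

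**Figure D4:**
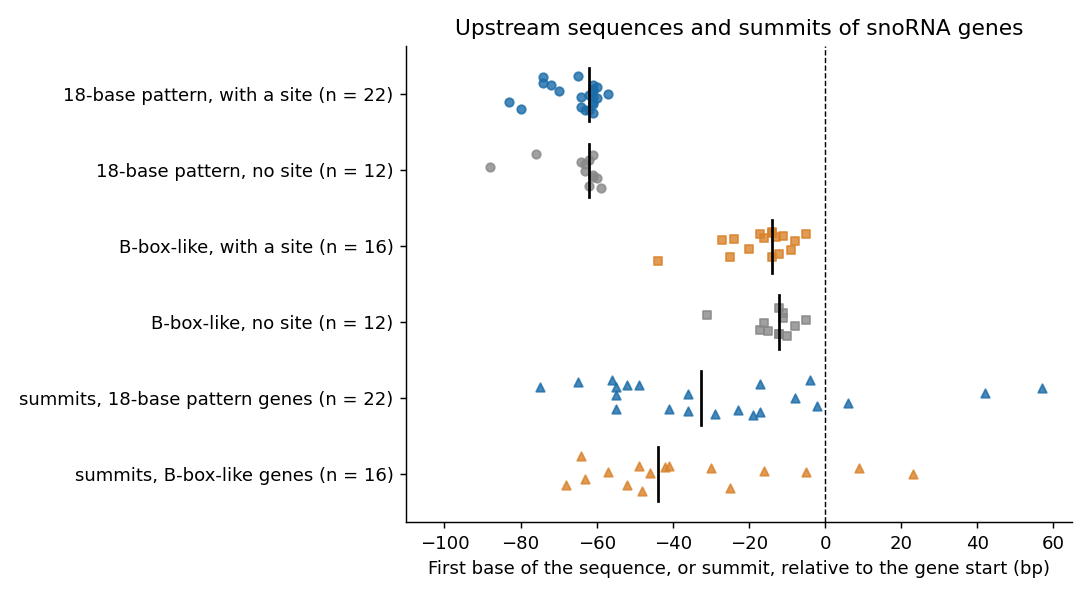
Position in bp relative to the snoRNA gene start (horizontal axis) of the first base of the 18-base pattern and of the B-box-like word in genes with and without a site, and of the nearest summit in the bound genes of each kind; vertical bars are medians. The 18-base patterns gather at 62 bp upstream and the B-box-like words at 12 to 14 bp upstream, while the summits of both kinds spread from 75 bp upstream to 57 bp downstream.

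The words that differed most between bound and unbound genes overlapped the start of the 18-base pattern in their letters, as follows from the choice of that pattern on the same genes. Among all words of 8 bases in the 100 bases before the start, those with the largest difference were CGGAACCC, GGAACCCG and GCGGAACC, which overlap each other. CGGAACCC was present in 12 of 64 bound genes (18.8%), with genes that share a site counted once, and in 8 of 281 unbound genes (2.85%), against 0.0375% of 29304 protein-coding starts. GGAACCCG was present in 11 bound genes (17.2%) and 5 unbound genes (1.78%), and GCGGAACC in 11 (17.2%) and 7 (2.49%).

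Sites at snoRNA genes also differed in sequence from the other MADF-8 sites. Within 100 bp of the summit, on either strand, 21 of 67 sites at snoRNA genes (31.3%, 21.5% to 43.2%) held the 18-base pattern, against 24 of 1905 other sites (1.26%, 0.848% to 1.87%), and 15 of those 24 lay in the window of an snRNA gene. The B-box-like word was held by 16 (23.9%) of the 67 sites and 80 (4.2%) of the 1905. Both sequences were drawn from the snoRNA genes, so these shares are also a description. Another 3 words, singled out earlier at the MADF-8 sites of protein-coding promoters in these same data, were found at smaller shares of sites. AAGGCGCA or its reverse complement lay within 50 bp of the summit at 4 of 67 sites at snoRNA genes (5.97%, 2.35% to 14.4%) and at 235 of 1905 other sites (12.3%). AAAGGCGC was at 3 (4.48%, 1.53% to 12.4%) and 236 (12.4%), and GCGAGACC at 3 (4.48%) and 171 (8.98%). The intervals at snoRNA genes reach those shares, so with 67 sites a lower share is not established.

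The strongest sites outside a host lay at genes of all 3 kinds. The signal is the value of the authors for each site, and the signals of each replicate come from separate lists with their own scale. F59C6.15 on chromosome I had a signal of 297 in the set of both replicates, with 143 in replicate 1 and 166 in replicate 2, and its summit was 65 bp upstream of the start. F09G2.14 on V had a signal of 262, with 93.1 in replicate 1 and 155 in replicate 2, and a summit 58 bp upstream. Both sites passed the threshold of the authors in each replicate. F59C6.15 holds the 18-base pattern, and F09G2.14 holds neither sequence and lies within the window of the protein-coding gene F09G2.2.

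Y23H5B.10 on I (signal 223, with 105 and 121 in replicates 1 and 2, summit 41 bp upstream) and W03C9.9 on II (219, with 109 in each, 63 bp upstream) hold the B-box-like word. M03D4.78 on IV had a signal of 204, with 77.4 in replicate 1 and 125 in replicate 2, and its summit, 100 bp upstream, was also within the window of zen-4, which encodes a kinesin of cytokinesis. The 18-base pattern was held by the next pair, smy-3 (203, with 83.1 and 109 in replicates 1 and 2, 49 bp upstream) and Y53F4B.47 (198, with 87.7 and 113, 56 bp upstream). F25H2.15 (179, 55 bp upstream), Y75B12B.12 (174, 23 bp downstream) and T03F7.8 (157, 46 bp upstream) followed. T26A8.6 (139, 26 bp upstream) and T19B4.8 (135, 52 bp upstream) completed the 12 named. Y74C9A.6, with the 18-base pattern and a summit 57 bp downstream, had the same rounded signal as T19B4.8. It ranked slightly higher (percentile 57.7 against 57.6) but was left out, since ties in the rounded signal were broken by name. All 12 named genes passed the threshold in both replicates, and each summit lay within 100 bp of the start. The summits at smy-3, Y53F4B.47 and Y75B12B.12 were also in the window of a protein-coding start.

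Within hosts, the strongest sites lay either close to the snoRNA gene start or further away, in the window of the host start. A host start is here the start of any protein-coding transcript of the host, so it can lie within the host gene. T06D8.11, in an intron of plpr-1 on II, had a signal of 286, with 110 in replicate 1 and 170 in replicate 2, and a summit 36 bp upstream. ZK994.7, within pxn-1 on V, which encodes a peroxidasin, had a signal of 284, with 130 in replicate 1 and 150 in replicate 2, and a summit 2 bp upstream. Both hold the 18-base pattern, and neither summit was in the window of a protein-coding start.

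The site that C51F7.3 and C51F7.4 share within frm-7 had a signal of 243, with 110 in replicate 1 and 133 in replicate 2. Its summit lay 68 bp upstream of C51F7.3 and 41 bp downstream of the start of C51F7.4. C51F7.3 has the B-box-like word shown above, which lies within C51F7.4. C51F7.4 holds neither sequence in its own stretch, so this site is counted under both kinds. Y37E3.20, in pcyt-2.1 on I, had a signal of 213, with 90.3 in replicate 1 and 123 in replicate 2. Its summit lay 55 bp upstream, within the window of a transcript start of its host. This snoRNA gene lies 6082 bp into its host, so that transcript start is an internal one. It holds the 18-base pattern, as do C08D8.3 (159, with 69.2 and 91.9 in replicates 1 and 2, 17 bp upstream), C16D9.11 in rol-3 (155, with 91.7 and 62.7, 41 bp upstream) and F01D5.12 (148, with 70.9 and 76.7, 36 bp upstream). T19C4.11, in the G protein gene gpa-1, had a signal of 126 and a summit 23 bp upstream, and passed the threshold in replicate 2 but not in replicate 1.

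The bound snoRNA genes of ribosomal protein hosts were different in position. Of 19 snoRNA genes in 13 ribosomal protein genes, 4 (21.1%, 8.51% to 43.3%) were bound, against 23 of 170 (13.5%, 9.19% to 19.5%) in other hosts. In each of the 4 the summit lay in the window of the start of the host, 242 to 481 bp upstream of the snoRNA gene, and was closer to a protein-coding start. Y24D9A.9 in rpl-7A had the highest signal of any snoRNA gene, 307, with 149 in replicate 1 and 151 in replicate 2. F54E7.10 in rps-12 followed with 220 (115 in replicate 1 and 106 in replicate 2), D1007.20 in rpl-24.1 with 118 (50.4 and 62.6) and B0041.9 in rpl-4 with 104 (64.2 and 48.4). The site of B0041.9 passed the threshold in replicate 1 but not in replicate 2, where its best score was 628.

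The window of a second protein-coding gene also held each of these summits: set-21, ska-3, rps-10 and B0041.8, beside rpl-7A, rps-12, rpl-24.1 and rpl-4 in that order. The nearest protein-coding start was that of the host at rpl-7A, 81 bp from the summit, and at rpl-24.1, 275 bp from it. For the site of F54E7.10 it was that of ska-3, at 131 bp, and for the site of B0041.9 that of B0041.8, at 164 bp. Y24D9A.10 and F54E7.11, the other snoRNA genes of rpl-7A and rps-12, lie further into their hosts and were not bound. A site at the host start was found for 9 of the 13 ribosomal protein hosts, beside 32 of all 162 hosts. Over all hosts, 43 snoRNA genes lay in a host with a site at its start and 10 of these (23.3%, 13.2% to 37.7%) were bound, 8 of them by a site whose summit lay in the window of the host start. In 3 of those 8, at Y37E3.20, D1046.6 and F55A11.10, the summit was closer to the snoRNA gene start. Of 146 in hosts with no such site, 17 (11.6%, 7.4% to 17.9%) were bound.

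In all, 8 bound genes had no summit within 100 bp of their start, and none of them held either sequence. Besides the 4 in ribosomal protein genes these were F39B2.14, inside tmem-107 with a summit 59 bp upstream of the nearest protein-coding start, F37F2.4 and Y41E3.464, outside hosts with summits 251 and 137 bp upstream of a protein-coding start, and W06A7.12, inside ret-1. Only the 2 summits at W06A7.12, 137 and 342 bp upstream of the snoRNA gene, were over 1000 bp from any protein-coding start. Both lay in the window of another noncoding RNA gene. At the edges of the window, the farthest member was B0041.9, whose summit was 481 bp upstream. Just outside it were C06A1.9, T07D4.7 and R151.11, with summits at -503, -504 and -513 bp relative to the start (signals 575, 86.5 and 126), and Y73B6A.14, K07C10.2, B0334.12 and F25H2.14, with summits 107, 121, 126 and 132 bp downstream (signals 102, 229, 117 and 80.8).

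Sites at snoRNA genes lay near the middle of the set in strength. Their signals ran from 6.86 to 307, with a median of 113, against a median of 120 and a highest value of 2990 at the other 1905 sites. By rank within the set, the median was at percentile 45.6 and the highest at 86.3. Sites of genes with the 18-base pattern had a median signal of 126, those with the B-box-like word 110 and those with neither 106. The median was 115 outside a host and 110 inside one.

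Just over 50% of the sites were found in both replicates. Of the 67 sites, 35 (52.2%, 40.5% to 63.7%) overlapped a thresholded site of both replicates, 17 (25.4%) of replicate 2 alone, 1 of replicate 1 alone and 14 (20.9%, 12.9% to 32.1%) of neither. At the other 1905 sites the share for both was 58.5%, within the interval above, with 19.1% for replicate 2 alone, 8.14% for replicate 1 alone and 14.3% for neither. Sites found in both replicates had signals of 82.2 to 307, with a median of 155, those in replicate 2 alone 35 to 126, and those in neither 6.86 to 95.1. Of the sites in neither, the strongest were at Y43F8C.22 (95.1), F11A10.9 (89.6), ZK643.9 (84.8), F30H5.4 (82.8) and D1046.6 (80.7). The highest score that any of these 5 reached was 823, in replicate 2 at Y43F8C.22, where the threshold was 830.

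**Figure D5:**
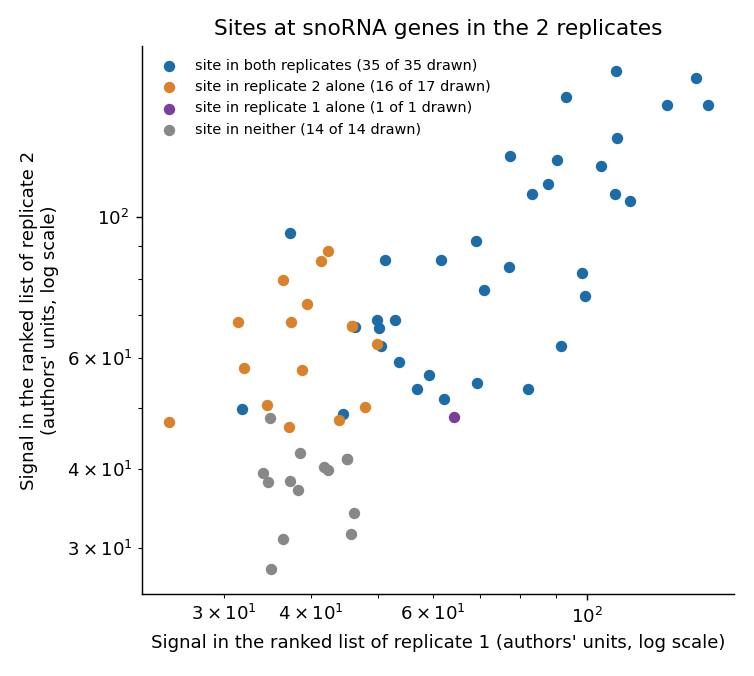
Signal of the best overlapping candidate in the ranked list of replicate 2 (vertical axis, log scale, authors' units) against that of replicate 1 (horizontal axis, log scale), 1 point for each site at a snoRNA gene with a candidate in both lists, coloured by the replicates whose thresholded list holds it. The 35 sites found in both replicates reach the upper right, and the 14 found in neither lie at the lower left, with signals in replicate 2 of at most 48.2 (F11A10.9).

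Other lists and windows changed the counts, and each gave snoRNA genes a larger share than all genes. The conservative set of the authors gave 72 bound snoRNA genes, beside 3.69% of all genes. A window of 200 bp before to 100 bp beyond the start gave 60, beside 2.13%, and 1 of 1000 bp before to 200 bp beyond it gave 82, beside 4.86%. With the list of replicate 1 alone 38 snoRNA genes (11%, 8.11% to 14.7%) were bound, beside 2.72% of all genes, and with that of replicate 2 alone 55 (15.9%, 12.4% to 20.1%), beside 3.11%. In replicate 1 alone the bound genes were 17 of 34 with the 18-base pattern (50%), 10 of 28 with the B-box-like word (35.7%) and 11 of 284 with neither (3.87%). In replicate 2 alone they were 22 of 34 (64.7%), 13 of 28 (46.4%) and 20 of 284 (7.04%). The patterns were written down from the set of both replicates, which the replicates are part of.

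By chromosome, bound snoRNA genes were spread over the autosomes, with 1 on X. The counts were 15 of 74 on I (20.3%), 12 of 71 on II (16.9%), 8 of 54 on III (14.8%), 13 of 59 on IV (22%) and 16 of 55 on V (29.1%). On X 1 of 33 (3.03%, 0.537% to 15.3%) was bound, Y102A11A.16, with a signal of 62.4 and no thresholded site in either replicate. The interval for X reaches the share of III and of no other autosome, and the difference was not tested. The share of all genes bound was not counted by chromosome, so the low share on X cannot be ascribed to snoRNA genes in particular.

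Most snoRNA genes could not be put in a class from the annotated sequence. With box C (TGATGA) within 12 bases of the 5′ end and box D (CTGA) within 12 bases of the 3′ end, 14 genes were box C/D, and 8 of these (57.1%, 32.6% to 78.6%) were bound. With ACA ending 2 to 5 bases before the 3′ end 82 genes were box H/ACA, and 12 (14.6%, 8.57% to 23.9%) were bound. That rule checked neither box H nor the length of the gene, so some of the 82 may match it without being of the class. The 250 left without a class had 45 bound (18%). A looser rule, chosen after seeing the data, took 5 of the 6 bases of box C within 20 bases of the 5′ end and box D within 20 bases of the 3′ end. By this rule 33 genes were box C/D and 17 of these (51.5%, 35.2% to 67.5%) were bound. Under it the 18-base pattern stood before 8 of the 33 box C/D genes and none of the 82 box H/ACA genes (0 of 82, which allows a share of up to 3.66%), and the B-box-like word before 9 and 8. Of the 34 genes with the 18-base pattern, 26 were among the 231 without a class (11.3%), as were 11 with the B-box-like word (4.76%), so the split by class covers few of them.

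Some members are near-copies of each other and are not independent. By a shared word of 30 bases, 30 snoRNA genes fell into 12 families, with 14 bound genes. In the largest, F25H2.15, F59C6.15, T19C4.11 and Y67A10A.14 were bound and F43A11.8 was not. Of the 67 sites, 54 lie in sequence where every 36-base word is unique in the genome, and 1, at W07G1.23, has a share of 0.473 of such words unique.

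Some unbound snoRNA genes had a candidate at their start that is not in the set. The ranked list of the pair holds 32380 candidates, including those below the threshold. Of the 281 unbound genes 58 (20.6%, 16.3% to 25.8%) had a candidate summit within 100 bp of the start, beside 6.61% of all genes with no site. This was so for 7 of the 12 unbound genes with the 18-base pattern, 5 of the 12 with the B-box-like word and 46 of the 257 with neither (17.9%). The scores of these 58 ran from 23 to 1000, with a median of 134, while the lowest score of a bound member was 842, at F38E11.14. K02F6.11, whose sequence is shown above, was among those with no candidate in the window.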

How the data were processed

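MADF-8 sites were taken from peak lists deposited by the authors on assembly ce11 (WBcel235), 1 list from both replicates and 1 from each, per the file headers. Each also drew on a control, not analysed here. How reads were aligned, how peaks were called and how signals were scaled is not given in the sources used here. Deposited with each site, the score is the scaled score of the irreproducible discovery rate (830 to 1000 in thresholded lists), and the deposited signal is 1 value per site, used to rank sites within 1 list at a time. Another 16 columns of per-replicate values, in the ranked lists, have no sample named on them and were left out.

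Genes came from Ensembl release 115 and sequences from RefSeq WBcel235. Shares carry 95% Wilson intervals, and no test was run between groups of genes. Motifs were searched in the 100 bp before the start and the first 20 bp of the gene, on its own strand, and around summits on both strands. snoRNA genes that share a site or a near-identical copy are not independent. The linking of sites to genes was tested on simulated data. The members, gene splits and words were chosen with earlier results of these data known. Named genes are the 12 with the strongest sites outside hosts and the 12 inside, by rounded signal with ties broken by name. Also named are hosts with 2 or more bound genes and the host with the most snoRNA genes and none bound. The rule further took up to 5 sites found in neither replicate, and the 3 words that differed most between bound and unbound genes. Genes just inside and outside the window, those with far summits, the snoRNA genes of hosts of named genes and the unbound genes with candidates were named after their values were seen. The choices varied were the peak list (conservative, or 1 replicate), the score and signal required, the window, and the rules for overlap and hosts. Alternatives chosen after seeing the data were the looser box C/D rule, and each replicate alone for the counts of genes with either sequence and of genes with a summit within 100 bp. The tools were Python 3.11.15 with pandas 2.3.3, scipy 1.17.1, matplotlib 3.10.9 and numpy 2.4.6.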

Additional observations from a re-analysis of the deposited data

Results flagged for a closer look

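A strong candidate at the snoRNA gene WBGene00220185, on chromosome IV outside any host, which holds the 18-base pattern, is absent from the set of both replicates. It had a score of 1000 and a signal of 93.4 in the ranked list of the pair, above the lowest score of 830 in the set. The reason for its absence was not tested.

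The ranked list of the pair holds candidates that the comparisons of bound genes do not use. By these, 58 snoRNA genes without a site had a candidate within 100 bp of the start, 20.6% of 281, beside 6.61% of all genes with no site. After WBGene00220185 the highest scores among unbound genes were 809 at F54G2.4 on X, 780 at F26D10.24 inside hsp-1, 759 at Y73B3A.30 on X and 697 at Y49E10.36 inside the histone gene his-72. The candidates of F26D10.24 and Y73B3A.30 were farther than 100 bp from the start. The 58 include 10 with a score of 415 or more.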

How the results depend on the processing

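Of 66 alternative values, 50 stayed within 1.5 times the reported count or within its interval, and 16 did not. Leaving out a replicate gave 38 to 55 bound snoRNA genes, 24 to 33 outside hosts, 14 to 22 inside hosts, 37 to 54 distinct sites, 12 to 16 genes with a site also in the window of a protein-coding start and 33 to 47 genes with a summit within 100 bp. The lower value is without replicate 2 each time. The stronger 50% of the sites by signal gave 27 bound genes, 16 outside and 11 inside hosts, with 26 distinct sites and 9 genes sharing a coding window. Narrowing the window to 200 bp before and 100 bp beyond the start left 60 bound genes but 6 in place of 21 that share a coding window, and widening it to 1000 bp before and 200 bp beyond gave 82 bound genes, 42 of them inside hosts in place of 27, and 38 that share a coding window. Genes with no coding start within 1000 bp had 34 bound, since fewer genes were counted. AAAGGCGC within 25 bp of the summit was at 1.49% of sites, in place of 4.48%, since the window is shorter. The conservative set gave 72 bound genes, a score of 1000 gave 58, and hosts on either strand gave 26 outside and 39 inside. Causes other than those named were not tested.

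No paired analysis was possible because both replicates belong to 1 group. The depth of the libraries is unknown, so a gene without a site cannot be told apart from one with a site too weak to be listed, and 33 genes on X or 19 in ribosomal protein hosts give wide intervals. Whether the untagged genome would give sites at these genes was not tested, since no sample without the tag was analysed here. Whole worms give 1 average over all tissues.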

Other observations

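Over the whole genome the 18-base pattern occurred 1102 times on both strands, and 47 matches (4.26%, 3.22% to 5.63%) had a MADF-8 summit within 100 bp. Grouped by the gene that starts within 120 bp downstream of the match on the same strand, a summit lay near 21 of 34 matches before snoRNA genes (61.8%, 45% to 76.1%), 15 of 31 before snRNA genes (48.4%, 32% to 65.2%) and 3 of 9 before other noncoding RNA genes. Matches before 4 protein-coding genes, 4 microRNA genes and 1 tRNA gene had none. Of the 1019 matches with no annotated start in that reach, 8 (0.785%, 0.398% to 1.54%) had a summit nearby. Many of these 1019 stand in pairs or runs at a recurring spacing, so they are not independent and the interval is too narrow. Whether their sequence is unique in the genome was not examined, as it was for the sites at snoRNA genes. The pattern was written down from snoRNA genes of these data, with earlier results known, so these values are a description and no independent test.

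Unbound genes with the 18-base pattern differed in their candidates. Scores of candidates within 100 bp were 1000 at WBGene00220185, 639 at smy-2, 596 at Y73F8A.1175, 412 at F43A11.8, 221 at C06E7.95, 57 at F47G4.9 and 44 at K02C4.7. K02F6.11, W05B2.9, W03B1.17 and 1 other gene had no candidate in the window, and Y73B6A.14 had 1 with a score of 23 and a thresholded site 107 bp downstream of its start.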
